A study of Mus musculus with 5 samples.

Results

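In gliomas from which Olig2 had been deleted, 1541 regions of the mouse genome carried both acetylated lysine 27 of histone H3 (H3K27ac) and trimethylated lysine 4 of histone H3 (H3K4me3), while neither mark was listed there in control gliomas and no Olig2 peak lay on them. They were chosen by that rule from 89204 regions, made by merging overlapping or touching peaks of the 4 histone lists on chromosomes 1 to 19. The data came from chromatin immunoprecipitation followed by sequencing (ChIP-seq) on brain tumours induced by PDGFB, taken 25 days after injection of the virus. Control tumours carried P53f/f and Olig2cKO tumours P53f/f and Olig2f/f, on a mixed background of C57Bl/6, 129Sv and CD-1 mice. Floxed P53 alleles are therefore common to both groups, and the groups differ by the floxed Olig2 alleles. How recombination was started, the age of the mice and the number of tumours behind a library are likewise not stated in the labels. Each of the 5 groups (H3K27ac and H3K4me3 in each genotype, and Olig2 in control tumours) had 1 library, so no difference between genotypes has a replicate check and no p-value is given.

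H3K4me3 is deposited mainly around the start sites of genes that are transcribed or poised, and H3K27ac is found on active promoters and active enhancers. A region with both marks is therefore usually read as promoter-type, although strong enhancers can also carry some H3K4me3. Olig2 is a transcription factor that defines the oligodendrocyte lineage and is expressed in many gliomas. Gene starts on mm9, the build of the peak positions, were not used here, so the regions are named by position and the word promoter-type rests on the 2 marks alone. Membership was decided by the presence and absence of peaks. The counts, scores and shares below therefore describe the regions and do not test whether they changed.

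Members made up 1.73% of the 89204 merged regions, and covered 2.31 Mb in all. Both marks in Olig2cKO tumours alone were found at 1970 regions (2.21% of all), of which 78.2% (95% interval 76.3 to 80.0) had no Olig2 peak. The Olig2-free share of all merged regions is not given here, so 78.2% does not show that new regions lack Olig2 more often than others. The reverse pattern without Olig2, both marks in control tumours alone, was found at 276 regions (0.309%), and with Olig2 counted as well it was found at 446 (0.500%). The Olig2cKO lists were also longer, with 67928 against 55323 H3K27ac peaks and 47634 against 43472 H3K4me3 peaks on these chromosomes. When the lists of each mark were cut to the same length by score, 954 regions met the rule and 413 showed the reverse pattern. When only the upper 50% of the Olig2cKO peaks by score were set against the whole control lists, 75 regions met the rule. In that setting 1847 showed the reverse pattern, which the cut itself favours. The mirror image, the upper 50% of control peaks against the whole Olig2cKO lists, left 12 reverse regions, a comparison chosen after the data were seen. Members outnumbered reverse regions with the whole lists and with lists of equal length. The same order held between the mirror cuts, where each cut kept 50% of lists of unequal length. Within the cut of the Olig2cKO lists alone the order was the other way. The counts thus depended on which peaks were admitted. The part that depth or quality of the libraries plays was not tested, since read counts are unknown.

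Most members were simple in structure. Exactly 1 H3K27ac and 1 H3K4me3 peak made up 1512 of the 1541 regions (98.1%, 97.3 to 98.7). Another 19 held 2 H3K27ac peaks and 1 H3K4me3 peak, 9 held 1 and 2, and 1 region held 2 of each. Members had a median width of 1291 bp, with 80% of the widths lying between 812 and 2412 bp and a full range of 384 to 6861 bp. Regions with both marks in both genotypes and no Olig2, of which there were 5938, had a median width of 2157 bp, to which control peaks also contribute. On the Olig2cKO peaks alone, members carried a median of 1181 bp of H3K27ac and 794 bp of H3K4me3, and the shared regions 1631.5 bp and 1444 bp.

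New promoter-type regions were weak in both lists and weaker in H3K4me3 than in H3K27ac. The peak scores come from the authors' peak caller and have no common scale across libraries. Each peak was therefore placed by its percentile within its own list, where 0 is the weakest and 100 the strongest. The members' median percentile was 35.3 (33.6 to 37.3) for H3K27ac and 22.0 (20.6 to 23.1) for H3K4me3. Shared Olig2-free regions had medians of 60.1 and 60.9. The H3K27ac percentile exceeded the H3K4me3 percentile in 69.6% (67.3 to 71.9) of members and in 48.3% (47.0 to 49.5) of shared regions. In the scores as deposited, the median member had 115.02 for H3K27ac (range 50.01 to 1085.14) and 113.54 for H3K4me3 (range 50.05 to 2124.05). These 2 ranges come from different libraries and are not to be set against each other.

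Fewer members were in the upper 50% of the H3K4me3 list than in that of H3K27ac. Scores in the upper 50% of the list were found in 491 members (31.9%) for H3K27ac and in 153 (9.93%) for H3K4me3. Both marks reached it in 75 members (4.87%, 3.85 to 6.06), and neither did in 972 (63.1%, 60.6 to 65.5). Percentile 90 or more was reached by 12 members for H3K27ac and by 1 for H3K4me3. Across members the percentiles of the 2 marks were weakly related, with a Spearman's rho of 0.21 and a Pearson's r of 0.23 over 1541 regions. The corresponding values in the 5938 shared regions were 0.15 and 0.14. All points of a group come from the same pair of libraries, and region width is common to both marks.

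**Figure D1:**
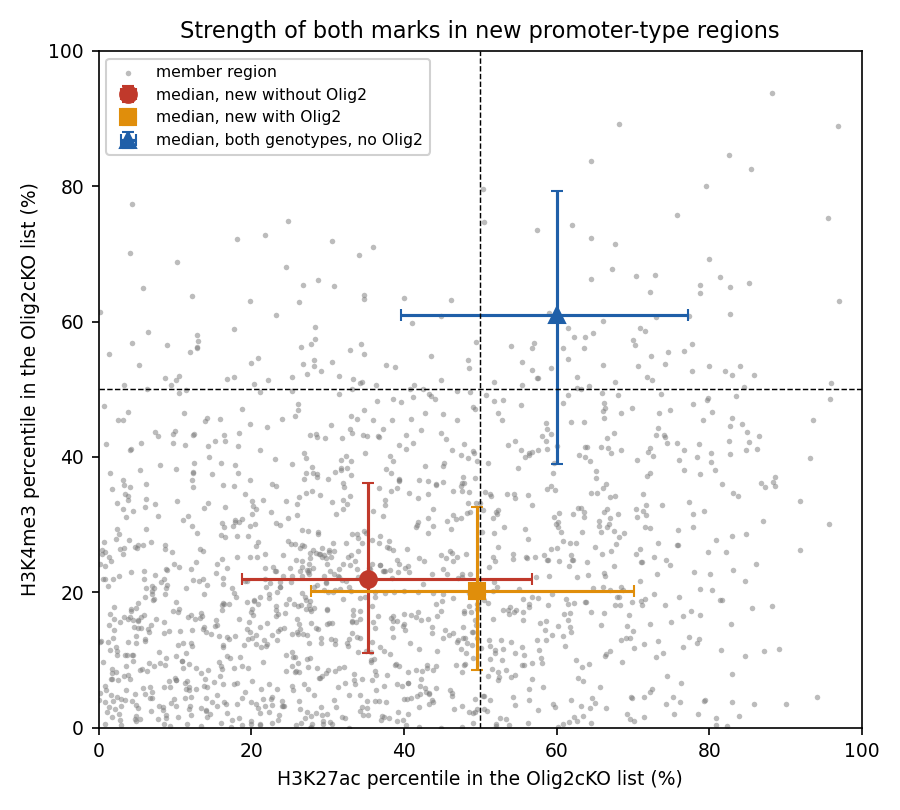
Percentile of the strongest H3K27ac peak (horizontal axis) and the strongest H3K4me3 peak (vertical axis) of each of the 1541 members within the Olig2cKO lists. Large symbols are medians and bars run from the 25th to the 75th percentile of each class; 972 of the members lie in the lower left, below 50 for both marks.

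New regions that held Olig2 in control tumours, of which there were 429, ranked higher than the members in H3K27ac but not in H3K4me3. Their median H3K27ac percentile was 49.5 (46.0 to 54.1), above the members' interval, and their median H3K4me3 percentile was 20.1 (17.4 to 21.9), an interval that overlaps the members'. Their median width was 1439 bp (1384 to 1491), against 1291 bp (1261 to 1322) in members. A wider region has more room to meet an Olig2 peak, and widths were not matched. The 276 reverse regions, measured in the control lists, had a median H3K27ac percentile of 39.2 (35.4 to 44.4) and a median H3K4me3 percentile of 12.5 (10.8 to 15.5). Low H3K4me3 rank was found in regions listed in 1 genotype in either direction. Selection by absence from the other genotype's lists itself favours low ranks, and its part was not tested.

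The share of new regions among promoter-type regions fell with rank, a pattern that the rule itself favours. Each list ends at a lowest score, so a weak region can be missing from a second list without a change between genotypes. How much of the fall comes from this was not tested. Of the 10877 Olig2-free regions with both marks in Olig2cKO tumours, 14.2% (13.5 to 14.8) had no control peak of either mark and are the members. Another 31.2% had a peak of 1 mark in control tumours. Up to percentile 10 of the H3K4me3 list the members' share was 32.6% (29.8 to 35.4), between 50 and 60 it was 8.55% (6.99 to 10.3), and above 90 it was 0.167% (1 of 599 regions). By H3K27ac the share went from 26.3% (23.2 to 29.4) up to percentile 10 to 2.42% (1.26 to 4.19) above 90. Between percentiles 60 and 70 the share was 2.94% (2.05 to 4.09) along H3K4me3 and 10.8% (9.27 to 12.6) along H3K27ac.

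**Figure D2:**
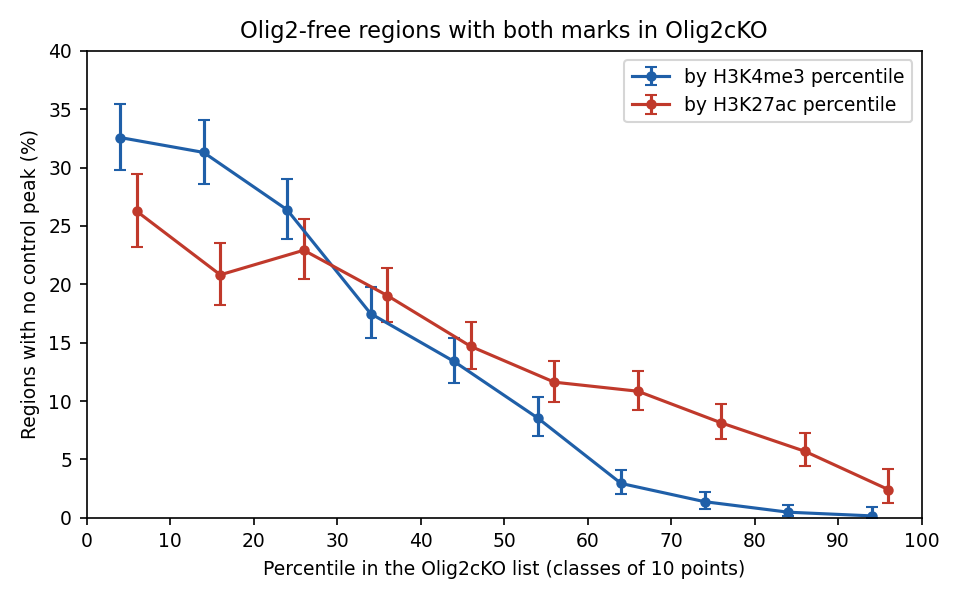
Percentage of Olig2-free regions with both marks in Olig2cKO tumours that had no control peak (vertical axis), in classes of 10 percentile points of the H3K4me3 or the H3K27ac list (horizontal axis); bars are exact 95% intervals for counting error. The share falls from 32.6% to 0.167% along H3K4me3 and from 26.3% to 2.42% along H3K27ac. The rule itself favours such a fall, since weak peaks most easily miss the cut of a second list.

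The most frequent layout in members was a H3K4me3 peak lying wholly inside the acetylated peak. Among the 1512 members with 1 peak of each mark, the H3K4me3 peak lay wholly inside the H3K27ac peak in 826 (54.6%, 52.1 to 57.2). The reverse nesting was found in 141 (9.33%, 7.91 to 10.9), and the peaks were staggered in 545 (36.0%). The centres of the 2 peaks were a median of 132.25 bp apart, and within 500 bp in 90.7% of these members. The H3K27ac peak was wider in 76.9% (74.6 to 79.0), with a median width ratio of 1.43 (1.38 to 1.48). Shared Olig2-free regions were more evenly divided. There, H3K4me3 lay inside H3K27ac in 37.5% (36.2 to 38.8) and H3K27ac inside H3K4me3 in 32.2% (30.9 to 33.4), with a width ratio of 1.06 (1.04 to 1.08). New regions that held Olig2 in control tumours showed the nested layout more often than members. Among 424 of them, H3K4me3 lay inside H3K27ac in 63.4% (58.66 to 68.04), and H3K27ac was wider in 84.9% (81.1 to 88.2). The layout was thus not particular to members. Ranks and widths were not matched between these classes.

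Within classes of H3K4me3 percentile, the contrast between members and shared regions turned around below percentile 40 and not above it. Between H3K4me3 percentiles 0 and 20 the H3K4me3 peak was nested in 62.0% (58.3 to 65.6) of 703 members and in 74.9% (70.9 to 78.6) of 502 shared regions. Between 20 and 40 the shares were 53.4% (48.9 to 57.8) and 64.7% (61.6 to 67.7). Between 40 and 60 they were 43.5% and 44.0%, with overlapping intervals. Shared regions of the lowest class had a median H3K27ac percentile of 54.1, and members one of 30.6. Their median H3K27ac widths were 1657 and 1137 bp, and neither was matched. Thus the nested layout went with low H3K4me3 rank in both classes of region, and was less frequent in members than in shared regions of the same rank below percentile 40.

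**Figure D3:**
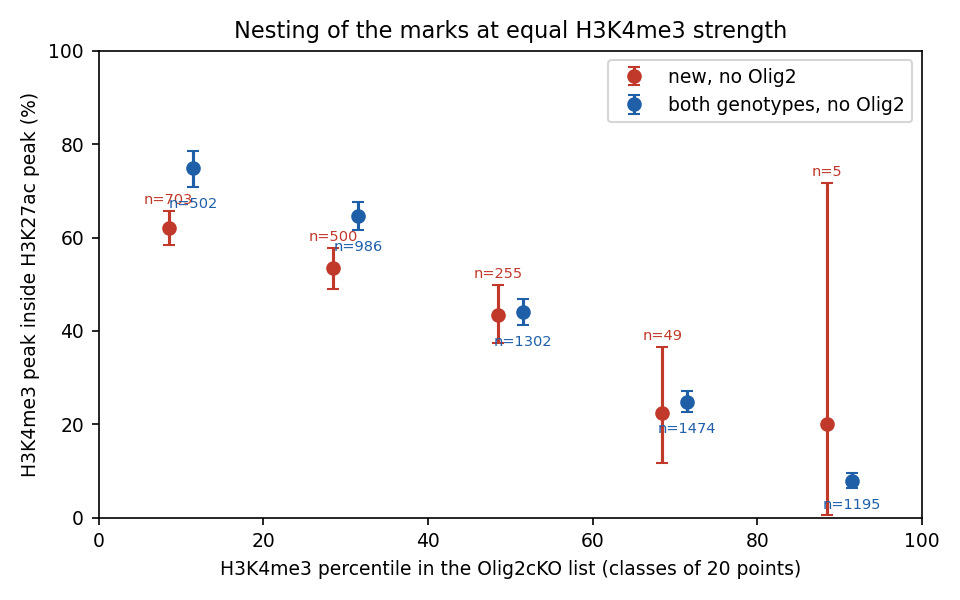
Percentage of regions whose H3K4me3 peak lies wholly inside the H3K27ac peak (vertical axis), for members and for Olig2-free regions with both marks in both genotypes, in classes of 20 percentile points of H3K4me3 (horizontal axis); bars are exact 95% intervals and n is the number of regions. Members lie below the shared regions in the lowest 2 classes, at 62.0% against 74.9% and 53.4% against 64.7%.

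Acetylation found in Olig2cKO tumours alone was more often joined by H3K4me3 where it was strong. Stronger regions of this kind were also wider, which gives more room to meet a H3K4me3 peak, and width was not matched across ranks. Regions without Olig2 and without any control peak that had H3K27ac in Olig2cKO tumours numbered 15768, and 9.77% (9.31 to 10.2) of them carried H3K4me3 and so were members. The other 14227 had a median H3K27ac percentile of 22.2 and a median width of 1019 bp. The share with H3K4me3 was 5.58% (4.87 to 6.36) up to H3K27ac percentile 10, 13.5% (11.5 to 15.6) between 50 and 60, 33.3% (28.3 to 38.7) between 70 and 80 and 60.0% (12 of 20 regions, 36.1 to 80.9) above 90. Since members have no control H3K4me3 by the rule, they were set beside the 13071 Olig2-free regions that had H3K27ac in both genotypes and no control H3K4me3, a comparison chosen after other values had been seen. Over all ranks the order was the other way, with 11.6% (11.1 to 12.2) of these carrying H3K4me3 against the 9.77% above. The shares in the same 4 percentile classes were 4.15% (2.95 to 5.65), 11.6% (10.2 to 13.1), 19.6% (17.5 to 21.7) and 38.0% (30.4 to 46.0). H3K4me3 on new acetylation was the higher share in all 10 classes, and the intervals did not overlap between percentiles 30 and 40 and between 60 and 90. In the class from 80 to 90 it was 59.0% (49.0 to 68.5) against 27.5% (24.3 to 30.8). New acetylated regions were narrower in these classes, with median H3K27ac widths of 677 against 834.5 bp up to percentile 10 and 1947 against 2433.5 bp above 90. The 2 groups still differ by the rule, which asks for no control H3K27ac in one and for control H3K27ac in the other.

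The 10 members named here had the highest value of the lower of their 2 percentiles. None had a control histone peak or an Olig2 peak, as the rule requires. The strongest lay on chromosome 2 from 118379317 to 118380762, where H3K27ac scored 1080.75 (percentile 96.9) and H3K4me3 1671.67 (88.8). A control peak was listed 2968 bp away and an Olig2 peak 3596 bp away. The next lay on chromosome 10 from 99061356 to 99063666, with scores of 591.9 (88.2) and 2124.05 (93.7). It is the member above percentile 90 of the H3K4me3 list, it held a second H3K27ac peak, and another member lay 7.27 kb from it. The third, on chromosome 6 from 63665637 to 63667392, scored 455.8 for H3K27ac and 1382.61 for H3K4me3, and was isolated, with 105.2 kb to the nearest control peak.

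A region on chromosome 18 from 60961967 to 60968445 was both strong and wide. Its H3K27ac peak spanned the whole 6479 bp with a score of 516.51, and a H3K4me3 peak of 4248 bp with a score of 1261.77 lay inside it. A second member of this kind lay on chromosome 11 from 48802592 to 48809452. There an acetylated peak of 6082 bp scored 410.98 and a H3K4me3 peak of 3916 bp scored 707.9, the nearest control peak was 67.9 kb away and the nearest Olig2 peak 65.9 kb away. At 6861 bp it was the widest member. By contrast, the region on chromosome 18 from 21012810 to 21015333 combined one of the highest H3K27ac scores, 958.08 (percentile 95.6), with a narrower H3K4me3 peak of 1313 bp (score 912.9).

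The remaining 4 of the 10 were 1214 to 3048 bp wide. They lay on chromosome 16 from 6134608 to 6135821 (H3K27ac 403.77, H3K4me3 1118.35) and chromosome 17 from 63036160 to 63037743 (352.6 and 932.91). The last 2 were on chromosome 4 from 39756453 to 39759500 (276.51 and 1693.21) and chromosome 9 from 16190359 to 16191712 (272.58 and 775.83). The chromosome 4 region was led by H3K4me3, whose peak of 2995 bp extended past one edge of a 1626 bp acetylated peak. In 9 of the 10 regions the distance to the nearest region with both marks in both genotypes was at least 26.5 kb, the exception being the wide region on chromosome 18, at 17.9 kb. Distances to a control peak ranged from 2968 bp to 105.2 kb.

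**Figure D4:**
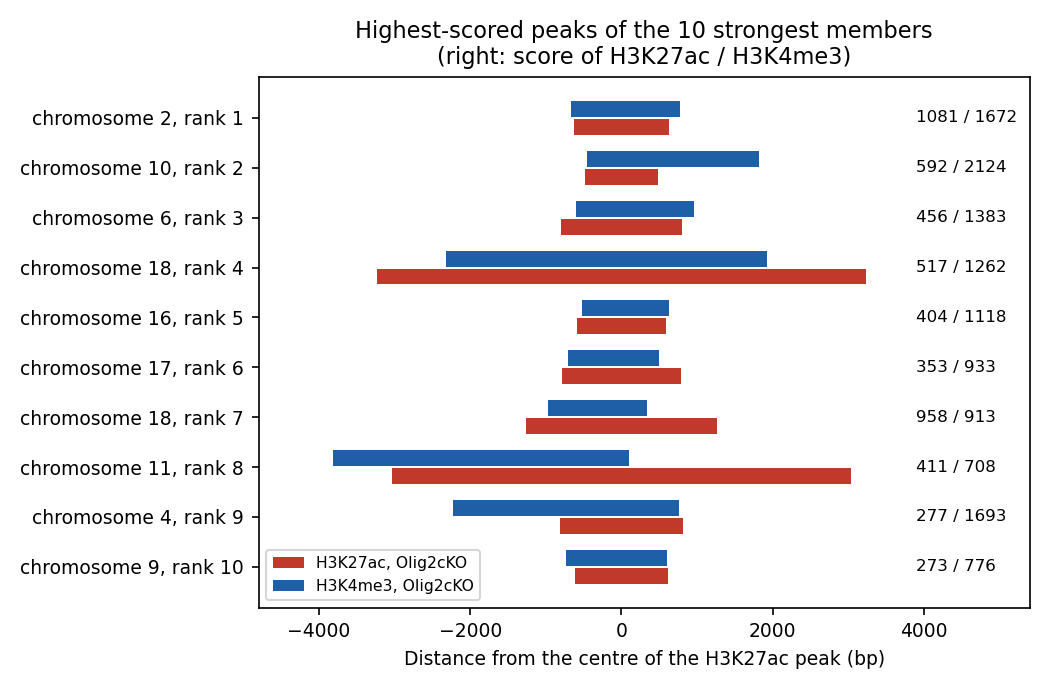
Extent of the highest-scored H3K27ac and H3K4me3 peak in Olig2cKO tumours at the 10 strongest members (rows), as distance in bp from the centre of the H3K27ac peak; the numbers on the right are the 2 scores, rounded. The regions ranked 4 and 8 are 6479 and 6861 bp wide, and the other 8 are 1214 to 3048 bp wide.

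Wide members ranged from weak to strong. The wide regions on chromosomes 11 and 18 were among the 10 strongest, as described above. Among the 5 widest members, the 3 not yet named were chr1:77497269-77504010 (scores 75.83 and 91.56), chr9:43936571-43943209 (119.31 and 251.28) and chr5:105564063-105570303 (170.36 and 894.28). The first was at percentiles 18.4 and 16.1, and the third at 50.6 and 74.8. The region on chromosome 9 lay 144 bp from a control peak, so its border with a control-marked stretch is narrow. Median H3K27ac percentile was 18.7 in the 394 members up to 1000 bp wide, highest at 56.2 in the 282 members between 1500 and 2000 bp, and 36.2 in the 31 members above 4000 bp. H3K4me3 percentile changed little with width beyond 1000 bp, with class medians of 23.5 to 25.3, and was 15.5 below it.

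Of the members with 3 or more peaks, of which there were 29, the 5 described here had 4 peaks or were the widest of those with 3. The single region with 2 peaks of each mark lay on chromosome 14 from 57733672 to 57735847, with highest scores of 77.81 for H3K27ac and 112.22 for H3K4me3. The other 4 named for their number of peaks held 1 H3K27ac peak, 3733 to 4150 bp wide, and 2 H3K4me3 peaks. They were chr1:159483479-159487628, chr14:37769457-37773347, chr18:68166974-68170761 and chr10:59233206-59236938. On chromosome 10 the H3K27ac score was 730.01 (percentile 91.9) while the best H3K4me3 score was 133.12 (26.2). In the other 3, H3K27ac scores ran from 130.25 to 237.5 and H3K4me3 scores from 85.63 to 169.84.

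A control peak of either mark lay within 50 kb of 90.4% of members and within 1 kb of 5.45%. The median gap to a control peak of either mark was 9308 bp (8744 to 10070), and 436 members (28.3%, 26.1 to 30.6) had one within 5 kb. A control peak lay within 5 kb on both sides of 50 members (3.24%) and on 1 side of 386 (25.0%). Beyond 50 kb from any control peak there were 148 members (9.60%). These isolated regions had a median H3K27ac percentile of 38.7 and a median H3K4me3 percentile of 22.3. Members within 5 kb of a control peak had medians of 31.5 and 20.7. The nearest region with both marks in both genotypes was a median of 29158 bp away, and within 5 kb for 144 members (9.34%).

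Regions with new acetylation alone gave a comparison for these surroundings. In the 14227 Olig2-free regions with H3K27ac but no H3K4me3, 28.4% (27.7 to 29.2) had a control peak within 5 kb, against 28.3% in members. A control H3K4me3 peak lay within 5 kb of 15.6% (13.9 to 17.6) of members and of 13.3% (12.8 to 13.9) of the regions without H3K4me3, and the intervals overlapped. By median gap, members lay slightly closer to a control H3K4me3 peak, at 17317 bp (16105 to 18947) against 19436 bp (18979 to 19939). Gaps were taken from region edges and members were wider, at a median of 1291 against 1019 bp. Neither width nor H3K27ac rank was matched. Olig2 peaks lay within 5 kb of 13.7% (12.01 to 15.5) of members and of 14.1% (13.5 to 14.6) of those regions. The median distance from a member to an Olig2 peak was 16500 bp (15452 to 18080).

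At the edge of the rule few regions were affected. The closest control peak to a member was 5 bp away and the closest Olig2 peak 29 bp away. A control peak lay less than 300 bp from 23 members, with median percentiles of 21.3 for H3K27ac and 20.0 for H3K4me3. Just outside the rule, 6 regions with both marks had 1 control peak that overlapped their Olig2cKO peaks by at most 300 bp, with medians of 25.0 and 15.4. These 6 were narrow, with a median width of 423 bp against 1271 bp in the 23 members, so such an overlap can be a large part of them. For Olig2, 6 members had a peak closer than 300 bp (15.5 and 20.0), and 8 regions were left out for an overlap of at most 300 bp (15.3 and 28.2).

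Members were spread over all 19 chromosomes. Of the Olig2-free regions with both marks in Olig2cKO tumours, the share without a control peak ran from 11.3% (8.89 to 14.2) on chromosome 7 to 17.0% (13.4 to 21.0) on chromosome 18, and these 2 intervals overlap. The median gap to the next member was 397500 bp, and 188 members (12.2%, 10.6 to 13.9) had another within 50 kb. In the order of all merged regions along a chromosome, 48.3% (45.8 to 50.9) of members had at least 1 direct neighbour that was also listed in Olig2cKO tumours alone. The share was 52.3% (51.5 to 53.2) for regions with new acetylation alone and 38.0% (36.8 to 39.3) for regions with both marks in both genotypes. Over all merged regions it was 42.6% (42.3 to 42.9), where 24.9% of the 89204 regions were themselves listed in Olig2cKO tumours alone for any mark.

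Runs of neighbouring Olig2cKO-only regions, with no control peak between them, were mostly short. Members fell into 1475 such runs, of which 796 held the member alone. Another 64 runs held at least 2 members, and 2 held 3. One of the 2 lay on chromosome 1 from 143709425 to 144963716, where 3 members and 6 regions with acetylation alone followed each other over 1254 kb. The other, on chromosome 9 from 116998320 to 117102459, held 3 members, 1 region with acetylation alone and 1 region with Olig2 in 104.1 kb. The run with most regions lay on chromosome 17 from 4227303 to 4623583 and held 13, of which 1 was a member, 6 had H3K27ac alone and 6 had H3K4me3 alone.

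Of 1050 windows of 1 Mb with a member, 698 held 1, and 4 held 6. The window on chromosome 5 from 105000001 to 106000000 was sparsely marked in control tumours. Its 6 members lay among 34 regions, 14 of them listed in Olig2cKO tumours alone and 1 in control tumours alone. All 6 members lay between positions 105481716 and 105784152, and 5 of them were 44.5 to 55.1 kb from any control peak. H3K27ac scores there were 90.06, 603.16, 170.36, 377.66, 309.42 and 490.28 from left to right, and H3K4me3 scores 218.26, 202.39, 894.28, 363.13, 351.33 and 270.22. In this row 5 of 6 members were in the upper 50% of the H3K27ac list and 3 of 6 in that of H3K4me3, against 31.9% and 9.93% of all members. The window was picked by its number of members, and no test of these shares was made.

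The other windows were more densely marked in control tumours. On chromosome 17 from 34000001 to 35000000 there were 6 members among 80 regions and 49 Olig2 peaks. One of its members, from 34281476 to 34284362, scored 232.35 for H3K27ac and 873.09 for H3K4me3 and lay 1.36 kb from a control peak, while 4 of the 6 had H3K27ac scores of 51.33 to 62.73. On chromosome 18 from 60000001 to 61000000, 6 members lay among 49 regions, and the wide region from 60961967 was the strongest, the other 5 having H3K4me3 scores of 57.18 to 276.64. On chromosome 8 from 36000001 to 37000000, 6 members lay among 61 regions and 27 Olig2 peaks, with H3K4me3 scores of 51.62 to 409.57. The window on chromosome 6 from 144000001 to 145000000 held 5 members among 59 regions, with 9 regions in each genotype alone and H3K4me3 scores of 51.22 to 146.38.

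**Figure D5:**
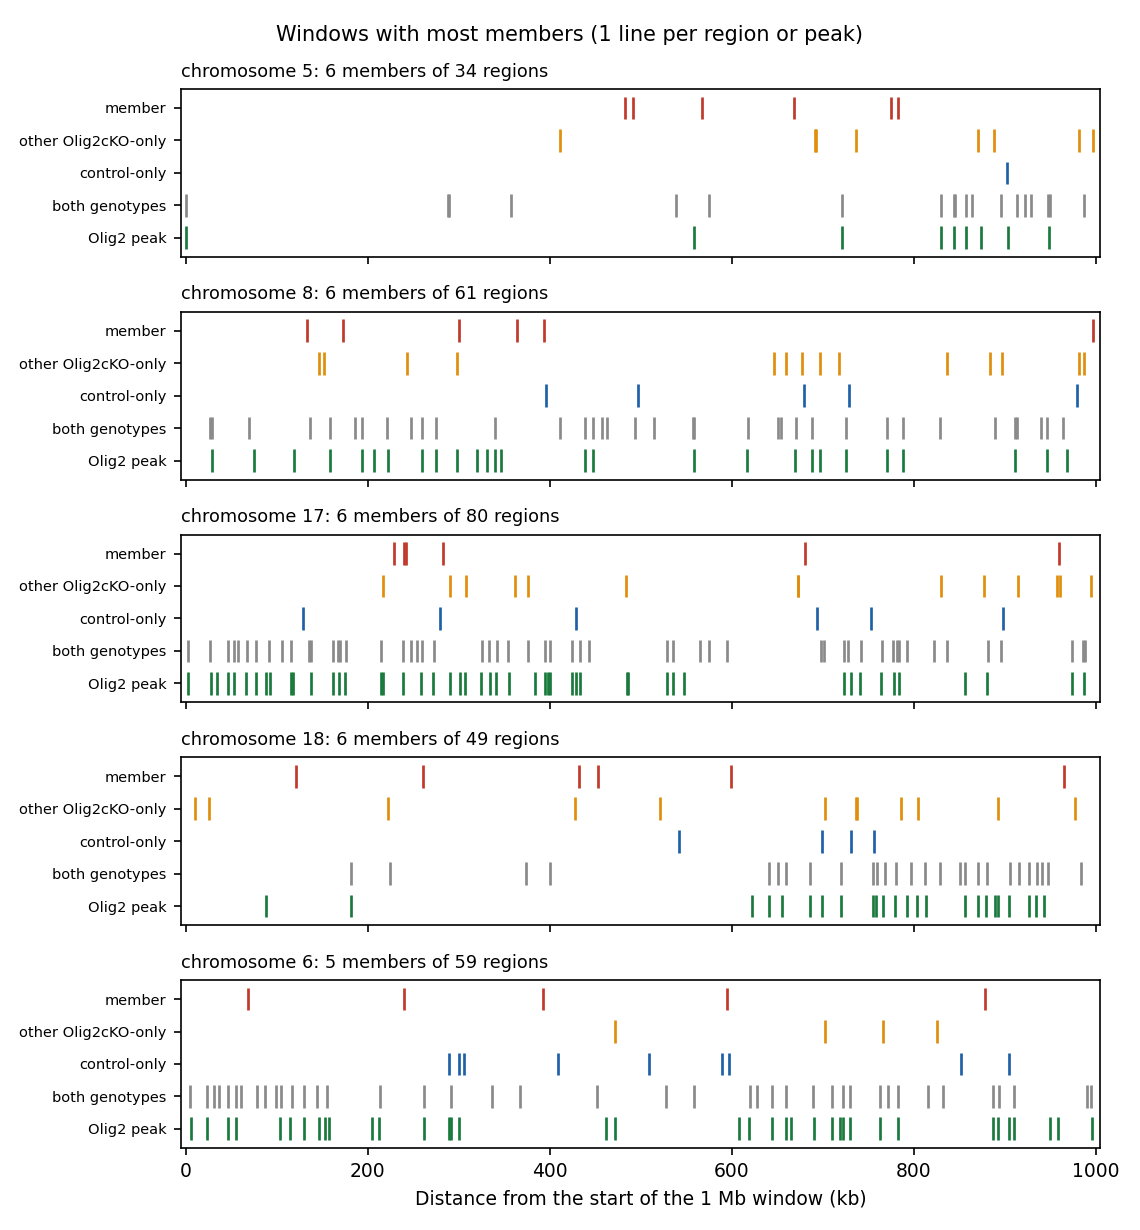
Positions of members, other Olig2cKO-only regions, control-only regions, regions listed in both genotypes and Olig2 peaks (rows, 1 line each) in the 5 windows with most members, as distance in kb from the start of the window. In the chromosome 5 window the 6 members lie where regions of both genotypes are few, and in the chromosome 17 and chromosome 8 windows they lie among 49 and 27 Olig2 peaks.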

How the data were processed

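Peak lists from 5 ChIP-seq libraries were used, 1 per group. Per the submitters' processing notes, CASAVA, Bowtie2 and MACS were used on mm9; versions, settings and any input library are not given in the sources used here. The deposited lists give a start, an end and a score per peak, a score the authors' caller assigned and which has no common scale across libraries; the lowest score in each list was 50 to 50.02. Depth is unknown. Peaks of the 4 histone lists that overlapped or touched were merged on chromosomes 1 to 19 (Python 3.11.15, numpy 2.4.6, pandas 2.3.3), and a region with Olig2 shared at least 1 bp with an Olig2 peak. bedtools 2.31.1 gave the same 1541 members and 89204 regions. Of 666 members planted in 4000 simulated regions, 666 were found. Percentiles were taken within each whole list, and a region took its highest peak. Intervals are 95% and cover counting error alone: exact binomial for shares, order statistics for medians (scipy 1.17.1). Neighbouring regions are not independent. Positions count from 1. Figures used matplotlib 3.10.9.

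The members and the rules were chosen with earlier results of these data known. Regions named were the 10 members whose lower percentile was highest, the 5 widest, the 5 with most peaks (ties by width) and the 5 windows of 1 Mb with most members (ties in chromosome order). Gene lists and sequence features had been planned only for a genome of the build of the peaks, and were not used here. One part of the genotype, common to both groups, is not reported here.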

Additional observations from a re-analysis of the deposited data

How the results depend on the processing

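Merging peaks that share a base instead of touching, asking that the marks share a base, and adding chromosome X left all 11 summary values within their intervals, or within 1.5 times for counts. Among the upper 50% of all 5 lists, 718 regions met the rule and 95 the reverse, 99.6% had 1 peak of each mark, median width was 1826 bp, the H3K27ac and H3K4me3 percentiles were 68.2 and 59.3, and H3K27ac was wider in 72.6%. A control peak lay within 5 kb of 12.1%, an Olig2 peak within 5 kb of 6.55% and another member within 50 kb of 8.91%. Removing weak control peaks also creates members here. With the upper 50% of the Olig2cKO lists against whole control and Olig2 lists, 75 regions met the rule and 1847 the reverse, which the cut itself favours. Of the regions with both marks in Olig2cKO tumours alone, 75.8% had no Olig2, median width was 1737 bp, percentiles were 70.4 and 57.7, H3K27ac was wider in 73.3%, and the 3 distance shares were 25.3%, 9.33% and 0%. The upper 50% of the control lists against whole Olig2cKO lists gave 12 reverse regions. With lists of equal length, 954 regions met the rule, median width was 1386.5 bp, percentiles were 46.9 and 27.3, H3K27ac was wider in 81.0%, and 7.23% had another member within 50 kb. Merging peaks up to 1 kb apart gave 94.98% with 1 peak of each mark, a median width of 1327 bp, 23.4% near a control peak and 11.8% near Olig2. A margin of 1 kb gave 23.9% and 11.5%. In each of the 8 settings in which member percentiles were computed, members ranked higher in H3K27ac than in H3K4me3 by median percentile. These settings are not separate checks, since leaving touching peaks unmerged and asking for a shared base both gave the same 1541 members. Percentiles of other region classes were not computed in them. No paired analysis was possible because each group has 1 library.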

Other observations

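Chromosome X, which the rule leaves out, held few regions of this kind. Of 387 Olig2-free regions with both marks in Olig2cKO tumours on chromosome X, 22 (5.68%, 95% interval 3.60 to 8.48) had no control peak of either mark. The lowest share on a numbered chromosome was 11.3% (8.89 to 14.2), on chromosome 7. The reverse pattern, both marks in control tumours alone without Olig2, was found at 5 regions of chromosome X. The labels do not state the sex of the mice, and H3K4me3 and H3K27ac ranks were not matched between chromosomes.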
